A study of Rattus norvegicus with 16 samples.

Results

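Rat pancreatic islets that received a control adenovirus were compared with untreated islets across all genes. The control virus, Adβgal, carries β-galactosidase, a bacterial enzyme used as a reporter with no role in islet function. The arrays titled as βgal treated (n = 6) and as untreated (n = 5) were taken, 11 of the 16 arrays of the series, and the 14217 genes with a probe set of a single symbol were tested, each through its probe set of highest mean. The other 5 arrays hold islets given AdNkx6.1, an adenovirus carrying the beta cell transcription factor Nkx6.1. They entered the choice of probe sets and the test's estimate of spread, while their own changes are shown only beside the results.

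All islets came from male Wistar rats aged 8 weeks and were cultured in RPMI medium with 8 mM glucose and 10% fetal bovine serum. Both virus groups were exposed to about 2e+09 viral particles per ml for 18 h, and RNA was collected 48 h after the virus was added. The titles call the arrays biological replicates, and the treatment protocol states 5 replicates per condition, whereas 6 Adβgal arrays were present and used. Nothing in the labels says whether replicates came from separate rats or from pooled islets, so the p-values measure the spread between these samples, which may be technical. The promoter that drives β-galactosidase is not given in the sources used here.

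An adenovirus brings double-stranded DNA into the cell, where it can be detected by Toll-like receptors and by cytosolic sensors such as cGAS. Detection activates the factors Irf3 and Irf7, which switch on type I interferon genes. Secreted interferon acts through its receptor to switch on antiviral genes, many of which carry the interferon stimulated response element in their promoters. In islets, interferon signalling is best known from the inflammation of type 1 diabetes, where MHC class I rises on beta cells.

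The endocrine genes of the islet were near the top of the intensity range in every array. Ins1 had log2 intensities of 14.62, 14.79, 14.72, 14.89 and 14.74 in untreated replicates 1 to 5. With Adβgal it ran from 14.54 to 14.86, with a median of 14.74. Both groups lay in the same range. The differences for Ins1 (-0.04 ± 0.08, SE), Ins2 (-0.06 ± 0.06), Iapp (-0.15 ± 0.06), Gcg (0.01 ± 0.07), Sst (-0.11 ± 0.06) and Ppy (-0.04 ± 0.07) did not pass the test. Whether probe sets this bright can still register differences was not tested, so equal hormone RNA is not shown. In these whole islets, fewer cells of a type and less RNA per cell cannot be told apart.

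Adβgal replicates 4 and 5 stood apart in correlation, and replicates 4, 5 and 6 in acinar, macrophage and lymphocyte markers. The median correlation with the untreated arrays was 0.977, 0.974 and 0.986 for replicates 4 to 6. It was 0.989 to 0.994 for Adβgal replicates 1 to 3 and 0.996 to 0.997 among the untreated arrays. By this measure replicate 6 was close to replicate 1 (0.989). Replicates 4 to 6 were grouped after the data were seen. The mean log2 intensity of 33 acinar markers, relative to its untreated mean, was 1.74, 1.38 and 1.35 in replicates 4 to 6. It was 0.23, -0.77 and 0.79 in replicates 1 to 3 and ran from -0.40 to 0.37 in the untreated arrays. The 37 macrophage and lymphocyte markers were at 0.30, 0.45 and 0.78 in replicates 4 to 6, against -0.18 to -0.09 in replicates 1 to 3. The median SD of a gene was 0.233 over the 6 Adβgal arrays, 0.134 over replicates 1 to 3 and 0.115 over the untreated arrays, while the test assumes 1 spread for all groups. The part of these differences in the results was not tested, and counts for many of the lists are given with and without replicates 4 to 6.

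A total of 997 genes (7.01% of those tested) passed an adjusted p of 0.05 in limma, 404 higher (2.84%) and 593 lower (4.17%) with Adβgal. At least 1.5-fold changes were seen in 366 genes (2.57%), 191 higher (1.34%) and 175 lower (1.23%), and 71 genes (0.499%) were at least 2-fold higher. The same test called 552 genes (3.88%) without Adβgal replicates 4 to 6, 245 higher (1.72%) and 307 lower (2.16%), with 195 (1.37%) at least 1.5-fold. Of the 997 genes, 386 were called in both, and 0 had the opposite sign without these arrays. Both fits share the untreated arrays and Adβgal replicates 1 to 3, so the signs are not independent. These shares of 2.84% higher and 4.17% lower are the background for the counts of list members. Single arrays moved the total by more than 1.5 times. It was 620, 532, 526 and 509 without untreated replicate 1, 2, 4 or 5, 647 without Adβgal replicate 6, and 1503 without Adβgal replicate 2. In all 11 such omissions 435 of the genes were called, 179 higher and 256 lower. The median change over all genes was -0.04, and 291 genes (2.05%) had every Adβgal array above every untreated array while 687 (4.83%) had every Adβgal array below.

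**Figure D1:**
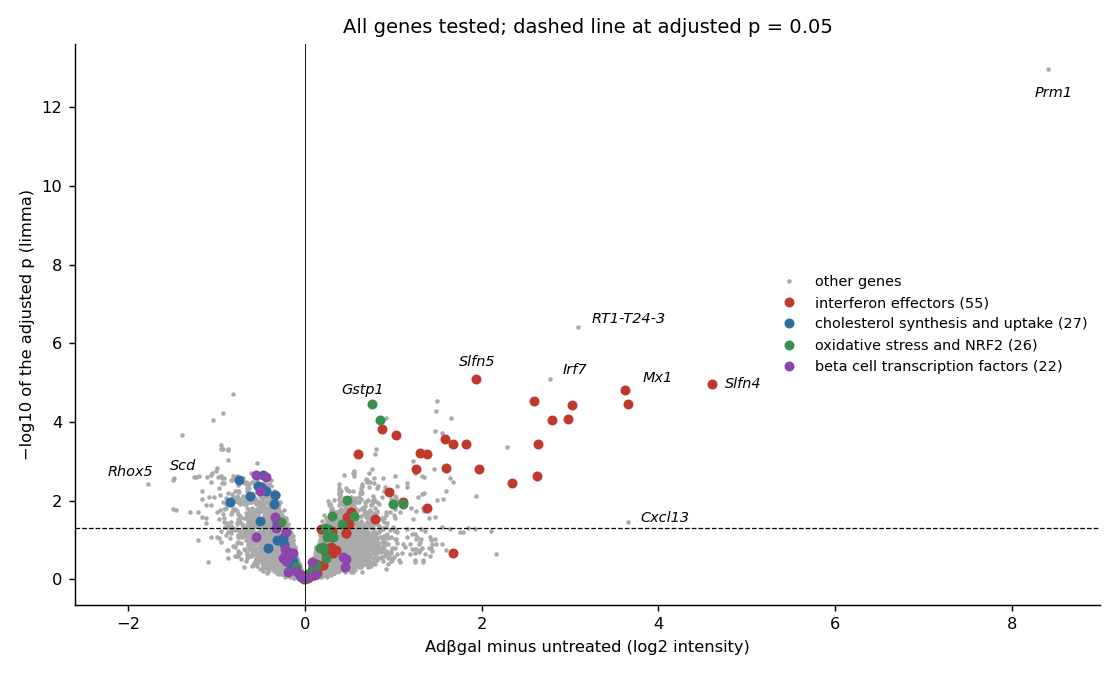
Log2 change of Adβgal minus untreated (x axis) against -log10 of the limma adjusted p (y axis) for all 14217 genes, with 4 gene lists coloured. Prm1 lies far from every other gene at 8.41, 10 of the 15 genes with the largest positive changes are interferon effectors, and the coloured lipid and beta cell genes past the dashed line lie to the left of 0.

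The largest change belonged to Prm1, which encodes protamine 1, the small basic protein that packs DNA in sperm. Its log2 intensities were 3.75, 3.97, 3.45, 4.09 and 3.99 in the untreated arrays, near the dim end of the array, so a fold change would not be exact. With Adβgal the lowest, median and highest values were 11.69, 12.34 and 12.73. Every Adβgal array was thus far above every untreated array, and the change of 8.41 ± 0.20 (adjusted p = 1.1e-13, limma) was 8.62 without replicates 4 to 6. Among 29 genes of spermatids, Prm1 was the only member higher with Adβgal, and Spata20, which has a role in sperm formation, was lower by 0.37 on the log2 scale (adjusted p = 0.043). The call of Spata20 was lost without any untreated replicate (0.059 to 0.12), without Adβgal replicate 3, 4 or 6 (0.060, 0.058 and 0.086), without Adβgal replicates 4 to 6 (-0.23, adjusted p = 0.19), and with the mean of its probe sets (-0.22, adjusted p = 0.13). The median over the spermatid list was -0.10. With AdNkx6.1, Prm1 was higher than untreated by 2.56 ± 0.20 (adjusted p = 2e-07). Whether the Prm1 signal comes from the islets' own gene was not tested.

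Genes of the interferon response led the increases. Of 55 measured effectors, 29 were higher with Adβgal and 0 were lower, against 2.84% of all genes called higher. The median change of the list was 0.52, against -0.04 over all genes. No overlap between the groups was seen in 25 of the 29, and in 644 of all 997 called genes. The list gave 22 of the 71 genes at least 2-fold higher and 10 of the 15 largest increases. Without Adβgal replicates 4 to 6 the test called 26 members, with a median of 0.56, and leaving out single arrays gave 25 to 32. An earlier analysis of the same arrays already showed this response, so the count is not independent evidence of it. The list also holds Sct, the hormone secretin, which is not known as an interferon effector and did not change beyond its error (-0.01 ± 0.23).

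Promoter sequences of 6 strongly raised genes are shown because each holds the interferon stimulated response element, searched as a pair of GAAA letters with any 2 bases between them, on both strands (a pair of TTTC on the reverse). Each sequence is the stretch of 200 bases before the gene's start in RefSeq's GRCr8 table, on the gene's strand, 5′ to 3′, with the matching letters in capitals. They are Ifit3 at chr1:241527126-241527325 (+), Ddx60 at chr16:33208840-33209039 (-), Irf7 at chr1:205800024-205800223 (-), Oas1a at chr12:41330266-41330465 (+), Rsad2 at chr6:48788121-48788320 (-) and Bst2 at chr16:18254968-18255167 (-).
Ifit3: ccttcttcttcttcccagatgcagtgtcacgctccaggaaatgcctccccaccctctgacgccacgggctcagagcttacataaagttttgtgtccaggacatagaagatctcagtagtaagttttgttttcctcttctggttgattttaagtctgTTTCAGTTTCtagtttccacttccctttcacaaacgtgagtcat
Ddx60: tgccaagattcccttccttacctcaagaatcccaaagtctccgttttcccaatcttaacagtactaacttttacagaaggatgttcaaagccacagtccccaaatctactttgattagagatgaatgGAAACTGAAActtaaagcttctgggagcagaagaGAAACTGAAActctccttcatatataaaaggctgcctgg
Irf7: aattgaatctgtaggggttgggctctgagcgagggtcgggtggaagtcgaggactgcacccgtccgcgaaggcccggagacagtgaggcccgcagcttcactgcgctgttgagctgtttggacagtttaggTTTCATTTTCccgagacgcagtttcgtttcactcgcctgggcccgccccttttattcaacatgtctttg
Oas1a: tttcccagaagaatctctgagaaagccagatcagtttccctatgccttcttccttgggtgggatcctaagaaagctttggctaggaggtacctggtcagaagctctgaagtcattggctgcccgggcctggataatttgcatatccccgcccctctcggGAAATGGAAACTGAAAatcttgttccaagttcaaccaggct
Rsad2: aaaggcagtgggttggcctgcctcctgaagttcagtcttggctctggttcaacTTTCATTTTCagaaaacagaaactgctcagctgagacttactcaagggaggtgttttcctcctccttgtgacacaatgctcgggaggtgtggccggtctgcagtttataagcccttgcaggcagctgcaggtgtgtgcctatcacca
Bst2: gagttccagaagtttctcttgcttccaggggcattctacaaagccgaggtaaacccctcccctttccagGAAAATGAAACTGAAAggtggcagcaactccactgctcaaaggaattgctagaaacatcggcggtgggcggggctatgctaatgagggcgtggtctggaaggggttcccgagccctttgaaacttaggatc

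The matches began 44 bases before the start in Ifit3, at 73 and 39 bases in Ddx60, at 69 in Irf7 and at 41 and 35 in Oas1a. In Rsad2 the match began 147 bases before the start, and in Bst2 a pair of overlapping matches began at 131 and 125. Over windows of 300 bases (250 before to 50 after the start), 3.77% of all 27457 promoters in the table held the motif, and so did 350 of the 11700 tested genes with a promoter (2.99%). It was present in 18 of 59 promoters of genes at least 2-fold higher with Adβgal (30.5%) and in 17 of 281 of those higher by less (6.05%). Among genes lower with Adβgal it was in 16 of 494 (3.24%). When Adβgal replicates 4 to 6 were left out, 40 genes (0.281%) were at least 2-fold higher, and 16 of the 33 with a promoter held it (48.5%). Within the effector list, 13 of 22 promoters of called members and 11 of 20 of the other members held it, so the letters alone did not separate the members that rose from those that did not pass. A match is a description of the sequence only.

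**Figure D2:**
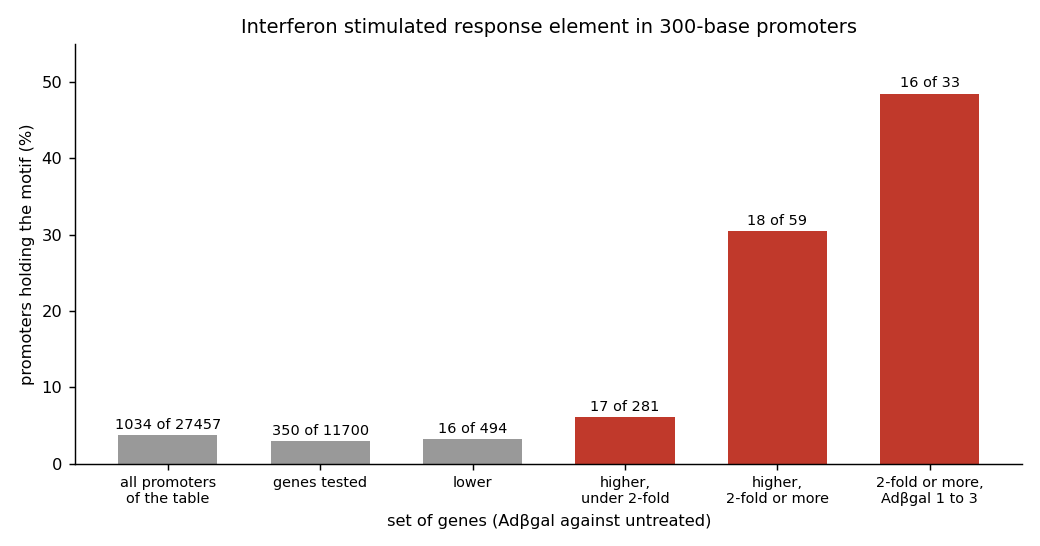
Share of 300-base promoters that hold a pair of GAAA with 2 bases between them on either strand (y axis, percent) for sets of genes (x axis), with the number of promoters above each bar. The share is 2.99% over tested genes, 3.24% among genes lower with Adβgal and 30.5% among genes at least 2-fold higher.

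Effectors that act on viral RNA were among the largest increases. Ifit3 belongs to the family that binds viral RNA without host cap methylation. It had log2 intensities of 6.09, 5.14, 5.36, 5.54 and 6.95 in the untreated arrays, and 8.59, 9.29 and 10.55 as the lowest, median and highest with Adβgal. All Adβgal arrays were above all untreated arrays, a change of 3.65 ± 0.36 or 12.5-fold (adjusted p = 3.6e-05). Ifit2 of the same family rose by 1.82 ± 0.23 (adjusted p = 0.00036). Oas1a, a synthetase of the 2-5A messenger that activates RNase L, ran from 6.04 to 7.27 untreated and from 7.78 to 10.85 with Adβgal. Its change was 2.62 ± 0.42 (adjusted p = 0.0024), and the lowest virus array, Adβgal replicate 5, lay just above the highest untreated array, untreated replicate 5. Oas1b changed by 2.34 ± 0.40 and Oasl by 1.60 ± 0.24. Ddx60, a helicase, rose by 3.02 ± 0.30, and Zbp1, a sensor of Z-form nucleic acid, by 1.30 ± 0.18.

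Inhibitors of viral replication and release rose as well. The Mx genes encode dynamin-like GTPases. Mx1 had 6.87, 6.08, 6.49, 6.80 and 8.21 in the untreated arrays, and 9.95, 10.36 and 11.26 as the lowest, median and highest with Adβgal, with no overlap. Its change was 3.62 ± 0.32 (adjusted p = 1.5e-05), and that of Mx2 was 2.98 ± 0.33 (adjusted p = 8.6e-05). Slfn4, a Schlafen family gene, had 4.85, 4.78, 4.51, 4.72 and 5.76 untreated, and 7.92, 9.80 and 10.47 with Adβgal. This was the largest change of the list, 4.60 ± 0.40 (adjusted p = 1.1e-05), from an untreated level near the dim end of the array, so a fold would not be exact. The other Slfn4 probe set was at 3.55 untreated and 3.48 with Adβgal, and the mean of the probe sets gave 2.27 (adjusted p = 7.6e-06). Slfn5 was higher by 1.94 ± 0.16, Rsad2 (viperin, which makes an antiviral nucleotide) by 2.64 ± 0.34, Rtp4 by 2.59 ± 0.25 and Apol9a by 2.29 ± 0.30. Bst2, or tetherin, which holds budding virus at the cell surface, rose by 1.68 ± 0.21, and the membrane protein Ifitm3, which blocks virus entry, by 0.60 ± 0.08. Ifitm1 and Ifitm2 did not pass, with changes of -0.14 ± 0.10 and 0.00 ± 0.09.

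Genes of the ISG15 system, in which the ubiquitin-like protein Isg15 is attached to other proteins, mostly rose. Isg15 itself had 9.46, 9.37, 9.32, 9.69 and 10.34 untreated and 11.23, 12.54 and 13.52 as the lowest, median and highest with Adβgal. Every virus array was above every untreated array, with a change of 2.79 ± 0.31 (adjusted p = 8.9e-05). Uba7, its activating enzyme, rose by 0.95 ± 0.18 (adjusted p = 0.0062), Herc6, a ligase, by 1.38 ± 0.19 (adjusted p = 0.00066) and Usp18, which removes Isg15 and dampens the interferon receptor, by 1.97 ± 0.30 (adjusted p = 0.0016). The conjugating enzyme Ube2l6 did not pass the test (0.21 ± 0.15, adjusted p = 0.43). Further called members were the GTPase Gbp2 (1.58 ± 0.20), Ifi27 (1.03 ± 0.13), Ifi44 (1.26 ± 0.19), the nuclear body protein Sp100 (0.87 ± 0.10) and the galectin Lgals9 (1.38 ± 0.31). The last 2 fall outside the naming rule and were chosen after their values were seen. Of the 26 members that did not pass, the RNA-editing enzyme Adar (0.08 ± 0.12) and the kinase Eif2ak2 (0.47 ± 0.15, adjusted p = 0.067) are examples, and Plac8 was at 1.67 ± 0.82. Plac8, Ifitm1, Ifitm2 and Sct also fall outside the naming rule and were chosen after their values were seen.

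**Figure D3:**
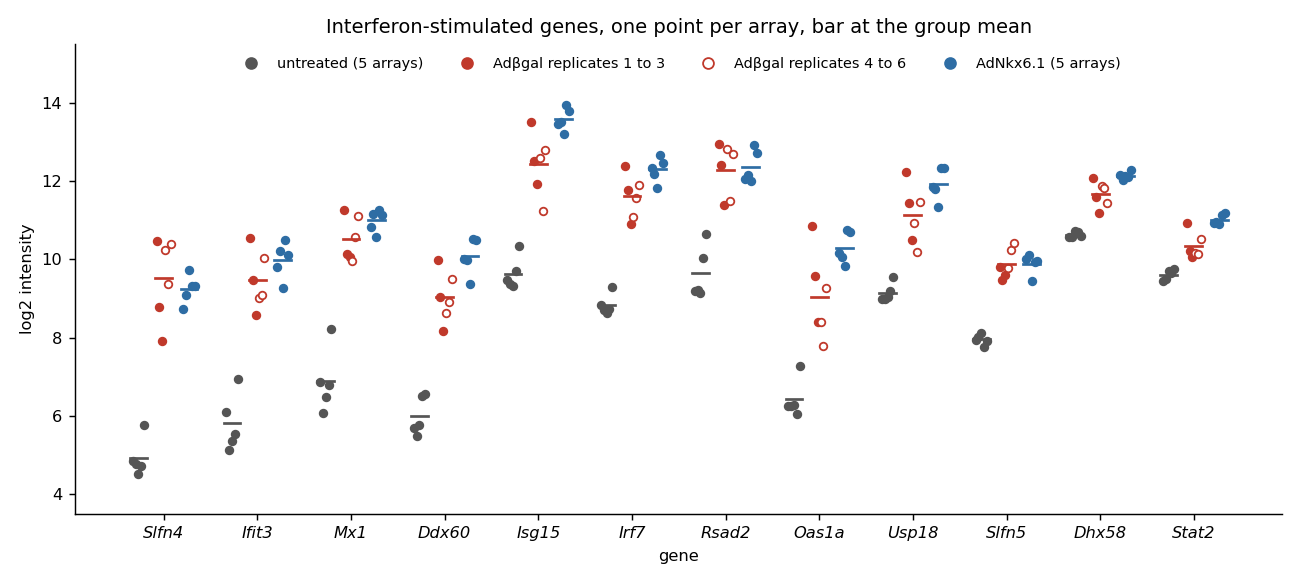
Log2 intensity (y axis) of 12 interferon-stimulated genes (x axis), with a point for each array and a bar at each group mean, and open red points for Adβgal replicates 4 to 6. In each of the 12 genes all 6 Adβgal arrays lie above all 5 untreated arrays, and untreated replicate 5 is the highest untreated array for Mx1, Isg15 and Oas1a.

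Some genes upstream of these effectors were called as well. Of 22 genes for sensing viral nucleic acid, 3 were higher (13.6%, against 2.84% of all genes) and 0 lower, with a median of 0.11. Dhx58 (LGP2), a regulator of RNA sensing, had 10.58, 10.57, 10.72, 10.70 and 10.59 untreated and 11.19, 11.70 and 12.08 with Adβgal. It was higher in every virus array, by 1.03 ± 0.13 (adjusted p = 0.00022). Ifih1 (MDA5), a sensor of long double-stranded RNA, rose by 0.74 ± 0.20 (adjusted p = 0.036), a call that was lost without untreated replicate 3, 4 or 5 (0.085, 0.079 and 0.092) or Adβgal replicate 3 or 6 (0.058 and 0.056). The count of 3 fell to 1 without any of untreated replicates 3, 4 and 5 or Adβgal replicate 6. Without Adβgal replicates 4 to 6 the counts were 2 higher and 1 lower, with a median of 0.05. Leaving out Adβgal replicate 4 alone also gave 1 lower. The kinase Tbk1 did not pass (-0.04 ± 0.06).

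Of 24 interferon signalling genes, 3 were higher (12.5%, against 2.84% of all genes) and 1 was lower, with a median of -0.03. Irf7, the amplifier of type I interferon production, had 8.84, 8.71, 8.64, 8.72 and 9.29 untreated and 10.91, 11.67 and 12.39 with Adβgal. The groups did not overlap, and the change was 2.77 ± 0.23 (adjusted p = 8.3e-06). Stat2 rose by 0.73 ± 0.13 (adjusted p = 0.0045) and Irf9 by 0.52 ± 0.12 (adjusted p = 0.018), the latter with an adjusted p of 0.054 without untreated replicate 5. The member that fell was Stat3, by 0.19 on the log2 scale (adjusted p = 0.039), which had 12.30 to 12.37 untreated and 12.09 to 12.19 with Adβgal. That call was lost without any single untreated replicate (0.062 to 0.097) and without Adβgal replicate 1, 3 or 6 (0.050 to 0.059), and the adjusted p was 0.10 without Adβgal replicates 4 to 6. The receptor gene Ifnar1 did not pass (-0.03 ± 0.16). The interferon genes on the array were dim in both groups. Ifnb1 was at a mean of 5.05 untreated and changed by -0.05 with Adβgal. The means of untreated and Adβgal arrays were, for Ifng, 3.66 and 3.51, and Ifnk 4.72 and 5.61, and the 3 had adjusted p-values of 0.82, 0.28 and 0.091.

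Antigen presentation through MHC class I showed 6 of 24 members higher (against 2.84% of all genes) and 0 lower, with a median of 0.22. Without Adβgal replicates 4 to 6 the count was also 6, with a median of 0.24, and single-array omissions gave 5 to 8. RT1-T24-3, a nonclassical class I gene, had 7.37, 7.11, 7.31, 7.48 and 7.42 untreated and 9.83, 10.59 and 10.67 with Adβgal. It was higher in all 6 virus arrays, by 3.09 ± 0.20 (adjusted p = 3.8e-07), the smallest p after that of Prm1. RT1-S3, another nonclassical gene, rose by 1.46 ± 0.22 (adjusted p = 0.0016). Probe sets of the class I family can share sequence, so their values may mix members. The immunoproteasome subunits Psmb8 (0.68 ± 0.14, adjusted p = 0.011) and Psmb9 (0.63 ± 0.12, adjusted p = 0.0063) and the peptide transporter Tap1 (0.66 ± 0.15, adjusted p = 0.015) rose, although Psmb8 and Tap1 overlapped between the groups. For Tap1 the mean of its probe sets gave 0.32 with an adjusted p of 0.13, since its other probe set is dim (3.61 and 3.60). B2m, the light chain of class I, was at 13.88 to 13.92 untreated and 13.81 to 13.95 with Adβgal and did not pass (-0.03 ± 0.05). The class I gene RT1-CE5 did not pass either (0.17 ± 0.11) in its brightest probe set. Its 4 other probe sets changed by 1.07, 0.78, -0.04 and -0.08, and the mean of all gave 0.38 (adjusted p = 0.13). Of 10 class II genes, 0 were called, with a median of 0.07, and 0 had an unadjusted p under 0.05 in limma.

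Chemokines and other NF-κB targets gave 6 of 53 members higher and 0 lower, with a median of 0.24. This count fell to 3 without untreated replicate 1, 2, 4 or 5 or without Adβgal replicate 6, and to 2 without Adβgal replicates 4 to 6, where the median was 0.04. Cxcl10, the interferon-induced chemokine that attracts T cells, had 8.90, 9.09, 8.39, 9.47 and 9.48 untreated and 9.63, 10.32 and 11.50 with Adβgal. The groups did not overlap, and it rose by 1.49 ± 0.31 (adjusted p = 0.0099). Fas, the death receptor, rose by 0.69 ± 0.12 (adjusted p = 0.0030), and the mean of its probe sets gave 0.42 (adjusted p = 0.066). Cxcl13, a chemokine for B cells, had 4.04 to 5.27 untreated, 5.85 to 7.10 in Adβgal replicates 1 to 3, and 8.98, 11.04 and 10.78 in replicates 4 to 6. Its change of 3.65 ± 0.99 (adjusted p = 0.036) became 1.69 (adjusted p = 0.25) without replicates 4 to 6, in which the acinar and leukocyte markers were also highest. In the AdNkx6.1 arrays Cxcl13 ran from 6.36 to 10.91. There the acinar list was at -0.80 to 0.55 and the macrophage and lymphocyte list at -0.27 to 0.19. A link of Cxcl13 to the mix of cells was not tested. The Cxcl13 call was also lost without any untreated replicate (0.059 to 0.082) and without Adβgal replicate 4, 5 or 6 (0.054 to 0.077).

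Acute phase and complement genes moved both ways, with 2 of 24 higher and 4 lower. Hp (haptoglobin, which binds free haemoglobin) rose by 0.76 ± 0.11 (adjusted p = 0.0016). The protease inhibitor A2m had 9.44, 9.55, 9.35, 9.46 and 9.25 untreated and 7.83, 8.67 and 8.82 with Adβgal, below the untreated arrays in every case. It fell by 0.87 on the log2 scale (SE 0.17, adjusted p = 0.0065), and Lbp, which binds bacterial lipopolysaccharide, fell by 1.06 (SE 0.18, adjusted p = 0.0033). The 4 lower members became 2 without untreated replicate 1, 2, 4 or 5, without Adβgal replicate 6, or without Adβgal replicates 4 to 6. The 2 higher members became 1 without untreated replicate 4 or without Adβgal replicates 4 to 6.

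Part of the list for cholesterol synthesis and uptake was lower. Of 27 members 11 were lower, 0 were higher and 16 did not pass, against 4.17% of all genes called lower, with a median of -0.25. The called members act in synthesis or sterol handling. Of all 997 called genes 644 had no overlap, and all 11 of these members had every Adβgal array below every untreated array. Without Adβgal replicates 4 to 6 the test called 7, with a median of -0.20, and single-array omissions gave 9 to 12. This decrease too was seen in an earlier analysis of these arrays. Idi1, which isomerises the isoprenoid building blocks, had 11.61, 11.72, 11.42, 11.66 and 11.66 untreated and 10.44, 10.90 and 11.22 with Adβgal. It fell by 0.75 on the log2 scale (SE 0.13, adjusted p = 0.0030). Fdft1, squalene synthase, had 11.63, 11.30, 11.24, 11.43 and 11.47 untreated and 10.79, 10.95 and 11.07 with Adβgal, and fell by 0.47 (SE 0.07, adjusted p = 0.0022). The groups did not overlap in either gene.

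Further synthesis genes were called lower. Mvd, of the mevalonate steps, fell by 0.44 (SE 0.08) and Msmo1, a sterol oxidase, by 0.62 (SE 0.12). Dhcr7, which makes cholesterol in the last step, fell by 0.50 (SE 0.09), Stard4, a sterol carrier, by 0.53 (SE 0.09), and Insig1, the sterol-sensing retention protein, by 0.34 (SE 0.07). Their adjusted p-values were 0.0042 to 0.0077, and 0.024 to 0.047 without Adβgal replicates 4 to 6. Hsd17b7 fell by 0.85 (SE 0.18, adjusted p = 0.011) and Nsdhl by 0.35 (SE 0.07, adjusted p = 0.012), and without replicates 4 to 6 these had adjusted p-values of 0.053 and 0.065. Members that did not pass include Lss (-0.24, adjusted p = 0.13), Cyp51 (-0.25, adjusted p = 0.090), Mvk (-0.05) and Pmvk (0.10). The letters TCACNCCAC, a form of the sterol regulatory element, were in 0 of 22 promoters of the list, against 130 of 11700 tested genes (1.11%), which says only that these letters are not in this window.

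In fatty acid synthesis 3 of 22 members were lower (13.6%, against 4.17% of all genes) and 0 higher. The median was -0.20, against -0.04 over all genes. Of the 22, 21 had a change below 0, but the share of all genes below 0 was not counted. The count was 3 without Adβgal replicates 4 to 6 and 5 without Adβgal replicate 2. Scd, the desaturase that makes oleate, had 9.35, 9.34, 8.53, 9.18 and 9.37 untreated and 6.61, 7.94 and 8.16 with Adβgal. All virus arrays were below the untreated arrays, and Scd fell by 1.48 on the log2 scale (SE 0.24, adjusted p = 0.0026). Fads1, a desaturase of polyunsaturated fatty acids, fell by 0.65 (SE 0.13, adjusted p = 0.0081). Fasn, fatty acid synthase, fell by 0.31 (SE 0.08, adjusted p = 0.022), a call lost without untreated replicate 1, 2 or 4 (0.062, 0.063 and 0.057).

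Several transcription factors of the beta cell were lower, with 4 of 22 called lower (18.2%, against 4.17% of all genes), 0 higher and a median of -0.18. Without Adβgal replicates 4 to 6 the count was 3 with a median of -0.13, and single-array omissions gave 3 to 6. Nkx2-2, needed to form and keep beta cells, had 12.25, 12.26, 12.07, 12.21 and 12.25 untreated and 11.50, 11.62 and 11.87 with Adβgal. Neurod1, an activator of the insulin gene, had 12.32, 12.59, 12.40, 12.52 and 12.55 untreated and 11.80, 11.94 and 12.15 with Adβgal. Neither gene overlapped between the groups. Nkx2-2 fell by 0.55 (SE 0.09, adjusted p = 0.0022), Neurod1 by 0.51 (SE 0.10, adjusted p = 0.0056) and Foxa2, a forkhead factor, by 0.44 (SE 0.07, adjusted p = 0.0025). Hnf4a, a nuclear receptor linked to inherited diabetes, fell by 0.34 (SE 0.09, adjusted p = 0.026), but its call was lost without untreated replicate 1 or 2 (0.064 and 0.073), without Adβgal replicate 6 (0.052), without Adβgal replicates 4 to 6 (0.059), and with the mean of its probe sets (-0.12, adjusted p = 0.31). Nkx6-1 did not pass (-0.33 ± 0.10, adjusted p = 0.051), nor did Pdx1 (-0.22 ± 0.10, adjusted p = 0.17) or Mafa (-0.13 ± 0.06, adjusted p = 0.21).

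Genes for insulin granules and glucose sensing gave 8 of 36 lower and 0 higher, with a median of -0.21, but 0 were called without Adβgal replicates 4 to 6, where the median was -0.09. The count was also 4 without untreated replicate 1 or 3, 1 without untreated replicate 2, 4 or 5, and 2 without Adβgal replicate 6. The glucose transporter Slc2a2 (-0.24 ± 0.07, adjusted p = 0.053) and the potassium channel subunit Abcc8 (-0.24 ± 0.09, adjusted p = 0.11) did not pass. The mean of this list was -0.34, -0.40 and -0.21 in Adβgal replicates 4 to 6. The acinar list was at 1.74, 1.38 and 1.35 in the same arrays. In replicates 1 to 3 the means were -0.10, -0.09 and -0.10, with the acinar list at 0.23, -0.77 and 0.79. A link between the lists was not tested.

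Of 26 genes of oxidative stress and of the factor NRF2, 8 were called higher (30.8%, against 2.84% of all genes), 1 was lower and 17 did not pass, with a median of 0.22. Without Adβgal replicates 4 to 6 the counts were 8 and 0 with a median of 0.24, while the count was 5 without untreated replicate 5. Gstp1, a glutathione transferase, had 12.26, 12.24, 12.32, 12.17 and 12.12 untreated and 12.80, 13.01 and 13.14 with Adβgal. It rose in every virus array, by 0.76 ± 0.07 (adjusted p = 3.5e-05). Txnip, the inhibitor of thioredoxin that responds to glucose in beta cells, had 11.34, 11.39, 11.34, 11.42 and 11.38 untreated and 11.94, 12.22 and 12.55 with Adβgal. It rose by 0.85 ± 0.09 (adjusted p = 8.9e-05), again without overlap. Slc7a11, the cystine importer, rose by 0.48 ± 0.10 (adjusted p = 0.0099). Osgin1, a growth inhibitor induced by oxidative stress, had 9.38 to 9.55 untreated and rose (adjusted p = 0.012) to a median of 10.46 with Adβgal, although Adβgal replicate 4 was at 9.42. Gsta3 rose by 1.11 ± 0.24 (adjusted p = 0.012), and an Adβgal array overlapped the untreated range there too. Gclc, which starts glutathione synthesis, rose by 0.31 ± 0.08 (adjusted p = 0.025), a call lost without untreated replicate 2, 3 or 5 (0.054, 0.057 and 0.065) or Adβgal replicate 6 (0.055), and with the mean of its probe sets (0.21, adjusted p = 0.36). Gpx2 rose by 0.56 ± 0.14 (adjusted p = 0.024), lost without untreated replicate 4 or 5 (0.075 and 0.063) or Adβgal replicate 6 (0.056). The member that fell was Gpx3, a secreted glutathione peroxidase, by 0.27 on the log2 scale (adjusted p = 0.036), a call lost without any untreated replicate or without Adβgal replicate 1 or 6. Common NRF2 targets did not pass, among them Hmox1 (0.21, adjusted p = 0.15), Nqo1 (0.26, adjusted p = 0.053), Txnrd1 (0.23, adjusted p = 0.051), Srxn1 (0.25, adjusted p = 0.083) and Gclm (-0.01, adjusted p = 0.94). Gsta1, a further glutathione transferase chosen after its values were seen, had 10.24 to 10.79 untreated and 11.28 to 12.13 with Adβgal, and rose by 1.49 ± 0.14 (adjusted p = 3e-05).

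**Figure D4:**
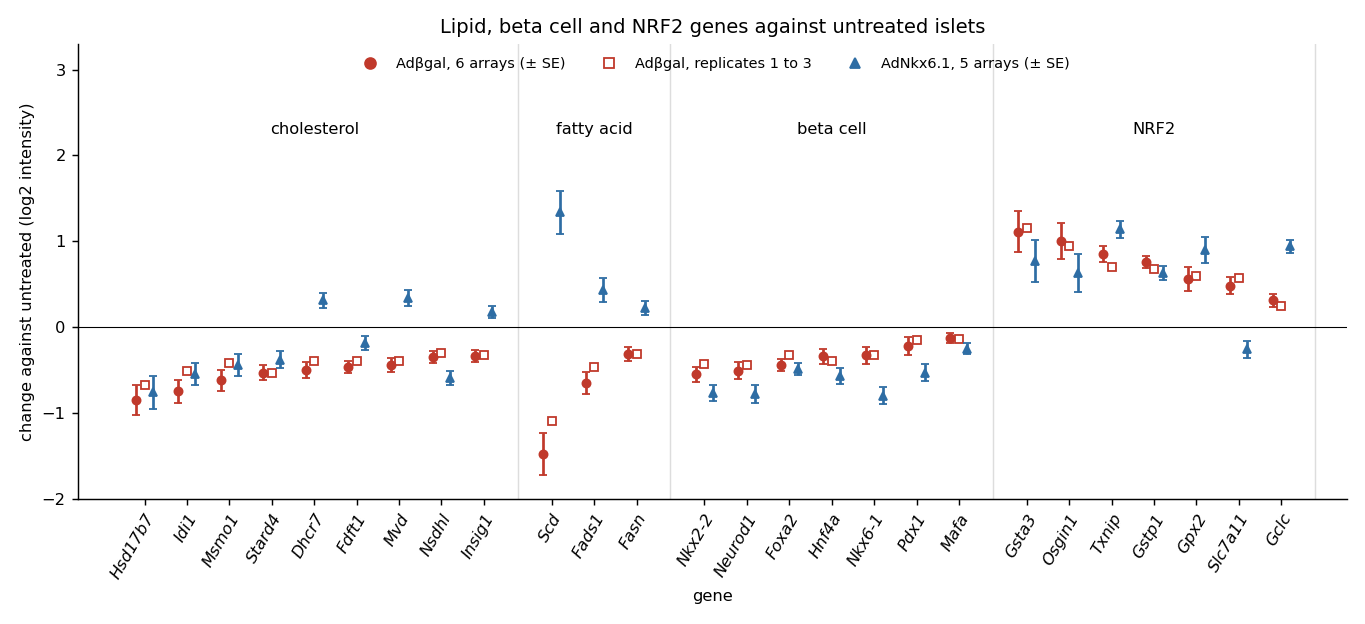
Log2 change against untreated islets (y axis) for lipid, beta cell and NRF2 genes (x axis), with red circles for all 6 Adβgal arrays (± SE), open squares for Adβgal replicates 1 to 3 and blue triangles for AdNkx6.1 (± SE). Genes marked NRF2 are members of the list of oxidative stress and NRF2, among them Txnip, the inhibitor of thioredoxin. The red circles lie below 0 for every lipid and beta cell gene shown and above 0 for every gene marked NRF2. The lipid and NRF2 genes drawn are all called members, so their signs follow from that choice. In the full lists, 3 of 26 NRF2 genes were below 0, and 3 of 27 cholesterol genes and 6 of 22 beta cell factors were above 0. The triangle of Scd lies at 1.34 while its circle lies at -1.48.

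The 15 genes with the largest decreases held few members of these lists. Rhox5, a homeobox gene of the reproductive tract, had 7.83, 7.37, 7.53, 7.53 and 8.03 untreated and 4.83, 5.80 and 6.91 with Adβgal. It fell by 1.78 on the log2 scale (SE 0.31, adjusted p = 0.0037), with no overlap, and its change was -1.12 without Adβgal replicates 4 to 6. Others encode matrix and secreted proteins. Sfrp4, an antagonist of Wnt signalling, had 7.87, 7.49, 7.55, 7.41 and 7.95 untreated and 5.75, 6.46 and 6.58 with Adβgal, and fell by 1.39 (SE 0.17, adjusted p = 0.00022). Its other probe set was dim (3.39 and 3.49), and the mean of both gave -0.64 (adjusted p = 0.0015). Fmod, a small collagen-binding proteoglycan, fell by 1.23 (SE 0.20), and the collagenase Mmp13 by 1.49 (SE 0.34, adjusted p = 0.016). Fstl5 fell by 1.46 (SE 0.34, adjusted p = 0.017) and had an adjusted p of 0.061 without Adβgal replicates 4 to 6.

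Ion channels and peptides were also among them. Kcnk2, a potassium leak channel, had 7.71, 7.70, 7.18, 7.51 and 7.62 untreated and 5.36, 6.31 and 6.91 with Adβgal. It fell by 1.26 (SE 0.20, adjusted p = 0.0025), below every untreated array, while its other probe set changed by 0.02 and the mean of both gave -0.62. Kcnj15, an inward rectifier, fell by 1.16 (SE 0.22, adjusted p = 0.0057), with -0.64 in the mean with a dimmer probe set (4.54 and 4.42), and the acid-sensing channel Asic2 by 1.30 (SE 0.31, adjusted p = 0.019), the latter with 0.092 without Adβgal replicates 4 to 6. The neuropeptide Gal (galanin, which inhibits insulin release) fell by 1.16 (SE 0.24, adjusted p = 0.0093) and had -0.70 without Adβgal replicates 4 to 6. Decreases were also called for the calcium-binding S100g, which fell by 1.20 (SE 0.19, adjusted p = 0.0023) and for Car3, a carbonic anhydrase, which fell by 1.49 (SE 0.25, adjusted p = 0.0030), with -0.95 in the mean of its probe sets.

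The calls of the remaining 3 depended on single arrays. Trem2, a receptor of macrophages, fell by 1.21 (SE 0.29, adjusted p = 0.020), lost without untreated replicate 1, 4 or 5 (0.052, 0.054 and 0.051), while without Adβgal replicates 4 to 6 its change was -1.79 (adjusted p = 9.7e-05). Crp (C-reactive protein) fell by 1.16 (SE 0.29, adjusted p = 0.026), lost without untreated replicate 1, 2, 4 or 5 (0.056 to 0.065) or Adβgal replicate 6 (0.053), and its change without Adβgal replicates 4 to 6 was -0.51 (adjusted p = 0.11). Hao1, a peroxisomal oxidase, fell by 1.12 (SE 0.31, adjusted p = 0.038), lost without untreated replicate 1, 2, 4 or 5 (0.065 to 0.097) or Adβgal replicate 4, 5 or 6 (0.050 to 0.067), and its change without replicates 4 to 6 was -0.68 (adjusted p = 0.20).

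Cell cycle genes gave calls that depended on a few arrays. Of 43 DNA replication genes, 9 were higher and 1 was lower, with a median of 0.26, but without Adβgal replicates 4 to 6 these counts were 1 and 1, with a median of 0.12. The 9 became 4 or 5 without untreated replicate 2, 3, 4 or 5 or without Adβgal replicate 6. Mcm6, a subunit of the replicative helicase, rose by 0.55 ± 0.12 (adjusted p = 0.011), with 9.73 to 10.11 untreated and 10.11 to 10.75 with Adβgal. Mcm5 rose by 0.55 ± 0.12 (adjusted p = 0.014), and without Adβgal replicates 4 to 6 its change was 0.36 (adjusted p = 0.13). Of 42 mitosis genes 2 were higher, and 0 to 5 were with single arrays left out. The count was 5 without Adβgal replicate 2, and 0 or 1 without untreated replicate 1, 2, 4 or 5 or Adβgal replicate 1, 4 or 6. Cdkn1a (p21), the cell cycle inhibitor, rose by 0.30 ± 0.07 (adjusted p = 0.016), lost without untreated replicate 4 or 5 (0.054 in both) and with 0.072 without Adβgal replicates 4 to 6.

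Of 26 cell death genes 6 were higher and 0 lower, and 3 were higher without Adβgal replicates 4 to 6 or without untreated replicate 1, 4 or 5. The inflammatory caspases Casp1 (0.82 ± 0.18, adjusted p = 0.011) and Casp12 (0.89 ± 0.16, adjusted p = 0.0056) rose. Casp1 had 6.60 to 7.08 untreated and 7.28 to 8.35 with Adβgal, with no overlap, while Adβgal replicate 5 of Casp12, at 6.56, lay below untreated replicate 3, at 6.64. Immediate early genes gave 4 of 36 higher and 2 lower, and 0 higher and 2 lower without Adβgal replicates 4 to 6. The 4 became 1 or 2 without untreated replicate 1, 2, 4 or 5 or Adβgal replicate 4 or 6, and the 2 became 1 without untreated replicate 2. Arc, an activity-regulated gene, fell by 0.70 (SE 0.14, adjusted p = 0.0076), and Atf3, a stress-induced factor, rose by 0.45 ± 0.09 (adjusted p = 0.011, or 0.092 without Adβgal replicates 4 to 6). The orphan receptors Nr4a1 (-0.01 ± 0.17) and Nr4a3 (-0.17 ± 0.41) did not pass. Nr4a3 was most variable, with 5.07 to 8.07 over the Adβgal arrays and 6.46 to 7.11 untreated.

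Other stress and metabolic lists had few or no calls. The unfolded protein response gave 0 of 30 with a median of -0.09, and its chaperone Hspa5 had a change of -0.02 ± 0.06. Glycolysis gave 0 of 23 with a median of -0.11, and oxidative phosphorylation 0 of 41 with a median of -0.04. At an unadjusted p under 0.05 in limma, these 3 lists had 5, 9 and 6 members. Of all 14217 genes, 3543 had an unadjusted p under 0.05 in limma. Of 16 genes for virus entry 2 were higher, which became 1 without untreated replicate 4 or without Adβgal replicates 4 to 6, and 0 without untreated replicate 5. Cxadr, the receptor that adenovirus binds, did not pass (-0.23 ± 0.17, adjusted p = 0.41).

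Markers of other cell types varied most between the Adβgal arrays. Of 33 acinar genes 31 had a change above 0, with a median of 0.72 against -0.04 over all genes. The share of all genes above 0 was not counted. Yet 0 acinar genes were called higher by limma and 15 had an unadjusted p under 0.05, and without Adβgal replicates 4 to 6 the median was 0.06. The count of 0 higher became 15 without Adβgal replicate 2 and 2 without Adβgal replicate 1. Bhlha15 (Mist1), a secretory factor in that list, fell by 0.77 (SE 0.12, adjusted p = 0.0023) and was at 9.56 to 10.20 with Adβgal and 10.58 to 10.67 untreated. The acinar factor Ptf1a did not pass (0.14 ± 0.41). Of 37 macrophage and lymphocyte genes 2 were higher and 2 lower. The 2 lower became 0 without untreated replicate 1, 2 or 3 or Adβgal replicate 4 and 1 without any other single array except Adβgal replicate 6, and the 2 higher became 1 without untreated replicate 2. Adgre1, a surface protein of macrophages, had 8.28, 8.18, 8.20, 7.98 and 8.35 untreated, 8.53, 8.85 and 8.67 in Adβgal replicates 1 to 3, and 9.48, 9.21 and 9.67 in replicates 4 to 6. It rose by 0.87 ± 0.17 (adjusted p = 0.0081), and by 0.48 (adjusted p = 0.025) without replicates 4 to 6. Of 20 endothelial genes 1 was higher, which became 8 without Adβgal replicate 1 and 0 without any other single array. The list's level was -0.94 in Adβgal replicate 1 and 0.16 to 1.27 in the others, against -0.07 to 0.04 untreated.

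**Figure D5:**
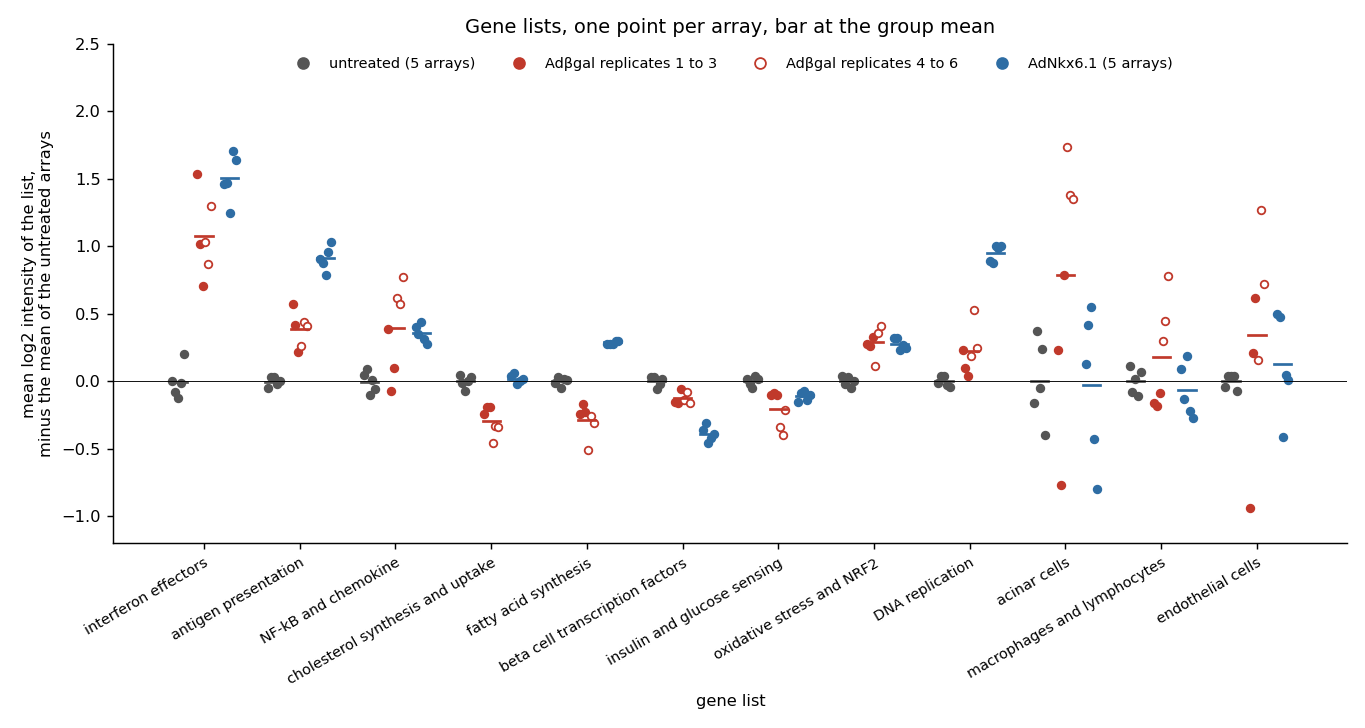
Mean log2 intensity of each gene list minus its untreated mean (y axis) for 12 lists (x axis), with a point for each array, a bar at each group mean and open red points for Adβgal replicates 4 to 6. The interferon list is above 0.70 in every Adβgal array and at most 0.20 untreated, both lipid lists are below the untreated arrays in every Adβgal array, and the acinar list runs from -0.77 to 1.74 with Adβgal.

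The second virus, AdNkx6.1, was set against the same untreated arrays, so the 2 comparisons share their controls and their values are given side by side only. It called 4360 genes (30.7%) against untreated, 2404 of them higher (16.9%), where Adβgal called 7.01% and 2.84%. For the effector list the counts were 47 of 55 higher with AdNkx6.1 and 29 with Adβgal, with medians of 1.02 and 0.52. Mx1 was changed by 4.10 with AdNkx6.1 and 3.62 with Adβgal, Slfn4 by 4.31 and 4.60, and Slfn5 by 1.94 in both. Tested directly, Oasl was higher with AdNkx6.1 than with Adβgal by 2.28 (adjusted p = 3.5e-06, limma), Bst2 by 1.28 (adjusted p = 0.00033) and Psmb9 by 1.04 (adjusted p = 1.1e-05). The direct comparison called 16.6% of all genes higher with AdNkx6.1 and 8.48% lower. Prm1 was lower with AdNkx6.1 than with Adβgal, by -5.84 (adjusted p = 1.7e-11).

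Some lipid genes differed between the viruses. Of the 27 cholesterol genes 8 were higher and 6 lower with AdNkx6.1, against 0 and 11 with Adβgal. Over all genes AdNkx6.1 called 30.7% in either direction and Adβgal 7.01%, so the list counts of the viruses have unlike backgrounds. Scd was changed against untreated by 1.34 with AdNkx6.1 and -1.48 with Adβgal, and the direct difference was 2.82 (adjusted p = 4.8e-07). Mvd (0.34 and -0.44), Dhcr7 (0.31 and -0.50) and Fads1 (0.43 and -0.65) had opposite signs too, and in each the direct difference passed, at 0.78, 0.81 and 1.08. Idi1 was lower than untreated with both viruses (-0.55 and -0.75), with a direct difference of 0.20 that did not pass (adjusted p = 0.27), nor did those of Msmo1 (0.18), Hsd17b7 (0.09) and Stard4 (0.14). Nsdhl was lower with AdNkx6.1 than with Adβgal, with a direct difference of -0.25 (adjusted p = 0.023). Of 22 beta cell factors 13 were lower with AdNkx6.1 and 4 with Adβgal, again over unlike backgrounds. Nkx2-2 was at -0.77 with AdNkx6.1 and -0.55 with Adβgal, and the direct difference of -0.22 did not pass (adjusted p = 0.078). The direct differences of Nkx6-1 (-0.46, adjusted p = 0.0023) and Pdx1 (-0.31, adjusted p = 0.027) passed. The Nkx6-1 probe set had means of 11.43 with AdNkx6.1, 11.90 with Adβgal and 12.23 untreated, although AdNkx6.1 carries Nkx6.1. Whether this probe set reads the virus's copy was not tested, so its value is not the level of Nkx6.1 in those islets. Slc7a11 was at -0.26 and 0.48, with a direct difference of -0.74 (adjusted p = 4.5e-05), and A2m at 0.39 and -0.87, with 1.25 (adjusted p = 4e-05).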

How the data were processed

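Islet RNA was labelled with biotin and hybridised to 1-colour Affymetrix arrays, per the labels. The deposited table holds linear probe set intensity values, and the submitters' processing notes name RMA, whose version is not given in the sources used here. Log2 of each deposited intensity was taken without a pseudocount. Median intensities were 264.8 to 296.2 per array. No detection call was applied, and dim probe sets were kept. How many arrays each group has sets the precision.

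Of 31099 probe sets, 57 controls were left out, 20826 had 1 symbol, 436 several and 9780 none. The platform's annotation gave the names, and 20758 gene numbers matched the RefSeq table with 0 symbols changed. The test was that of limma 3.58.1 (R 4.3.3), in a fit over 3 groups and 16 arrays. P-values were 2-sided and adjusted by the Benjamini-Hochberg method over 14217 genes, with a threshold of 0.05, and ± values on changes are standard errors. The script was tested on simulated data. The labels do not say whether equal replicate numbers share islets, and the main fit used no block.

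The members and the 33 gene lists were chosen with earlier results of these data known. Genes named are the 15 highest and 15 lowest called changes, skipping placeholder symbols, with Prm1, Nkx6-1, Nr4a1, Nr4a3, chosen list members and, from each list, at most 8 members taken in order of p. Alternatives were the 11 arrays alone, a second quantile normalization, a mean log2 of at least 6, the mean of all probe sets, array weights, a trended robust fit, a replicate block, each array left out, and, added after seeing the data, Adβgal replicates 4 to 6 left out together. Promoters came from RefSeq's GRCr8 table by gene number. Figures were drawn with matplotlib 3.10.9.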

Additional observations from a re-analysis of the deposited data

Results flagged for a closer look

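Over 125 genes and 33 list means, each in 2 groups, 15 of 316 sets of arrays had an array far from the rest of its group, about the number that chance gives at 1 in 20 sets. The array farthest from its group was untreated replicate 5 for Slfn4 (5.76) and Oas1a (7.27), where it was the highest untreated array. It was untreated replicate 3 for Uba7 (9.30), Scd (8.53) and Nkx2-2 (12.07), which were lowest there, and for Mcm6 (10.11), which was highest there. Mvd was highest in untreated replicate 1 (9.75). Adβgal replicate 4 was the lowest for A2m (7.83) and the highest for Dmxl1 (7.71), Adβgal replicate 6 the lowest for Mmp13 (4.97), and Adβgal replicate 1 the lowest for Gsta1 (11.28).

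Among list means relative to the untreated mean, the immediate early list was highest in Adβgal replicate 5 (0.50), the glycolysis list lowest in Adβgal replicate 4 (-0.29), the beta cell disallowed list lowest in untreated replicate 4 (-0.05) and the spermatid list lowest in untreated replicate 5 (-0.08).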

How the results depend on the processing

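Counts depended on the setting more than directions did. The total of 997 called genes was 521 with the 11 arrays alone (212 higher, 309 lower), 1790 with array weights (712 higher, 1078 lower) and 552 without Adβgal replicates 4 to 6 (245 higher, 307 lower, 195 at least 1.5-fold). With the replicate number as a block it was 393 (152 higher, 241 lower, 219 at least 1.5-fold, 3 antigen presentation and 7 cholesterol members, 3 NRF2 members). With this block, 24 of the 125 named genes lost the call of the main fit. After group means were removed, correlations of same-numbered untreated and Adβgal arrays ran from -0.22 to 0.13. Of 5 untreated arrays, 2 correlated best with their own number. So few pairs cannot decide whether equal numbers share islets, and the labels do not say. Leaving out 1 array gave totals of 509 to 1503, 212 to 589 higher, 296 to 914 lower and 248 to 566 at least 1.5-fold. By list it gave 25 to 32 interferon, 5 to 8 antigen presentation, 9 to 12 cholesterol, 3 to 6 beta cell factor and 5 to 12 NRF2 members. Cholesterol members lower were 7 without Adβgal replicates 4 to 6, and NRF2 members higher were 5 with the 11 arrays alone and 15 with array weights. Of the 95 called genes named here, 82 were called in every single-array omission and 82 without Adβgal replicates 4 to 6, and none of the named genes reversed its direction as a called gene under any setting run. The settings share arrays, so their directions are not independent. The number of arrays limits what small changes can be seen, and dim probe sets limit the folds of Prm1, Slfn4 and Cxcl13. No cause of these shifts was tested.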

Other observations

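Some genes, chosen after their values were seen, were higher with Adβgal and near the untreated level with AdNkx6.1. Dmxl1, which takes part in assembling the vesicular proton pump, had 5.49, 5.44, 5.34, 6.04 and 5.90 untreated and 6.84, 7.07 and 7.71 as the lowest, median and highest with Adβgal. All virus arrays were above the untreated arrays, and it rose by 1.48 ± 0.15 (adjusted p = 5.3e-05, limma), or 1.31 without Adβgal replicates 4 to 6. With AdNkx6.1 its change was 0.07, and the direct difference between the viruses was -1.40 (adjusted p = 5.9e-06). Ikzf2, a zinc finger factor of lymphocytes, rose by 1.34 ± 0.18 (adjusted p = 0.00066), with a change of -0.28 with AdNkx6.1 and a direct difference of -1.62 (adjusted p = 9e-06). Per3, a component of the circadian clock, rose by 1.64 ± 0.27 (adjusted p = 0.0026), or 0.91 in the mean with its other probe set, which changed by 0.18. It was at 0.35 with AdNkx6.1, with a direct difference of -1.29 (adjusted p = 0.0019). Nars2, the mitochondrial asparaginyl-tRNA synthetase, rose by 1.35 ± 0.26 (adjusted p = 0.0065), or 0.80 without Adβgal replicates 4 to 6, with 0.08 with AdNkx6.1 and a direct difference of -1.28 (adjusted p = 0.0017). These 4 genes were called in every single-array omission and without Adβgal replicates 4 to 6.

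The remaining lists gave small counts. Of 20 p53 targets 4 were higher (2 without Adβgal replicates 4 to 6, 2 without untreated replicate 1 and 1 without untreated replicate 4 or 5). Of 29 integrated stress response genes 2 were higher and 1 lower, and of 14 heat shock genes 2 were higher (0 without Adβgal replicates 4 to 6). Of 16 cell cycle inhibitors 1 was higher and 1 lower, of 25 genes normally silent in beta cells 2 were lower, and of 15 genes of other endocrine cells 1 was lower. Of 19 duct genes 1 was higher, and of 30 stellate and fibroblast genes 1 was higher and 1 lower. These counts of 1 or 2 depended on single arrays: 1-array omissions gave 0 to 4 higher heat shock genes, 0 to 1 lower stress response genes, 0 to 2 lower endocrine genes and 0 to 3 higher duct genes. They also gave 1 to 2 lower genes of the silent list, 0 to 2 higher and 1 to 3 lower cell cycle inhibitors, and 0 to 4 higher and 0 to 1 lower stellate and fibroblast genes.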
